A study of Mus musculus with 6 samples.

Results

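The TGF-β receptor and SMAD genes described here are 10 genes taken by name from the table of read counts of a murine AML: the ligand gene Tgfb1, the receptor genes Tgfbr1 and Tgfbr2, the SMAD genes Smad2, Smad3, Smad4 and Smad7, and the corepressor genes Ski, Skil and Tgif1. They are 10 of the 54838 genes in the table and 10 of the 11092 genes with enough reads to test. All samples were C57BL/6 leukemic cells of the I1DN model, with the genotype IDH1R132H; DNMT3AR882H; NrasG12D, so both groups carried these alleles. The model was made by transducing HSPCs from fetal liver with constructs for the 3 mutant genes, and the cells used were frozen cells of a mouse with advanced leukemia, grown in sublethally irradiated Ptprca recipients that kept hematopoietic cells of their own. There were 3 mice given vehicle (Vehicle 1 to 3) and 3 given AG636 (AG636 1 to 3), an inhibitor of the pyrimidine synthesis enzyme DHODH, at 100 mg/kg b.i.d. by oral gavage. The length of treatment is given as 1 day in one of the sources used here and as 4 days in another, and the sorted cells are called cKit+CD11b- in one place and cKit-high CD11b-low in another. RNA was read from the 3′ end of transcripts, and samples held between 4634963 and 7906589 counts. Levels are given as CPM, read counts relative to the scaled library size. The 3′ libraries give about 1 fragment a transcript whatever its length, so CPM were compared between genes without division by length.

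TGF-β is a secreted cytokine that restrains the cycling of hematopoietic stem cells. It binds the type II receptor, which phosphorylates the type I receptor. The type I receptor then phosphorylates SMAD2 and SMAD3, which join SMAD4 and act on genes in the nucleus, where SKI, SKIL and TGIF1 hold their output back and SMAD7 shuts off the receptor.

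AG636-treated cells had a higher mRNA level, relative to the library, of both receptors and of Smad3. Tgfbr2 was 1.75-fold, Tgfbr1 1.65-fold and Smad3 1.39-fold higher, and these 3 of the 10 genes passed the threshold of an adjusted p under 0.05 (from the quasi-likelihood test of edgeR, adjusted over all genes tested by the Benjamini-Hochberg method). None of the 10 passed it in the other direction with edgeR, DESeq2 or limma-voom, and with edgeR none had an unadjusted p under 0.05 there. Over all genes tested, 10.3% passed upward and 11.0% downward. In bulk RNA, a change in the share of cells of one kind and a change in RNA per cell cannot be told apart.

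The sequence just before the start of these 3 genes is shown because they rose together. Of the 10 genes, 6 had an entry in the RefSeq promoter table (GRCm38.p6). Each window holds the 250 bases before the annotated start, written 5′ to 3′ on the gene's strand, and capitals mark GC boxes (GGGCGG or its reverse complement CCGCCC), the motif bound by SP1.
Tgfbr1, chr4:47352972-47353221, plus strand: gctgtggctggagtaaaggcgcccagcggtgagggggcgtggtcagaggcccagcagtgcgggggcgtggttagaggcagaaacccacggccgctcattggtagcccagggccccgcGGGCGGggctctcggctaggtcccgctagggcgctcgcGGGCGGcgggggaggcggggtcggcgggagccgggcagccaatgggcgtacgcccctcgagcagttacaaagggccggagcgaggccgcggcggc
Tgfbr2, chr9:116175364-116175613, minus strand: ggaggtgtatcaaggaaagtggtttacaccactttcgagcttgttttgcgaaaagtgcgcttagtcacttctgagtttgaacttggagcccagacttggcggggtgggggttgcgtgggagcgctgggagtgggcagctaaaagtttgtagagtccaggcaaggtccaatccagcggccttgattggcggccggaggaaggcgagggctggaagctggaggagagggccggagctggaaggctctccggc
Smad3, chr9:63757995-63758244, minus strand: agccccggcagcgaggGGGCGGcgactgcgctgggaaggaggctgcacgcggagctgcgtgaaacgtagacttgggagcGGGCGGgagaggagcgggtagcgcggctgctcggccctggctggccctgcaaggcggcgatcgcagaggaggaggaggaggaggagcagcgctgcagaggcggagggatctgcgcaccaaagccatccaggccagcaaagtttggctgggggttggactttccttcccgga
The Tgfbr1 window held 2 GC boxes, which began at positions -133 and -95 counted from the start, and the Smad3 window held 2, at -234 and -171. The Tgfbr2 window held none. Tgfbr1 had a second entry in the table, at another start, which held none and is not shown. Genes that were not called held GC boxes too, with 5 in the window of Tgfb1, 5 in that of Ski and 5 in 1 of those of Tgif1. A GC box was found in 32.7% of the 32851 windows of this length. None of the 3 windows held the palindromic SMAD motif GTCTAGAC (0.167% of all windows), the YY1 core AAGATGGC or its reverse complement (1.57%) or the E-box CACGTG (6.02%). A match is a match of letters, not a site in use, and a missing match says only that the letters are not in these windows.

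The ligand gene Tgfb1 (chr7:25687002-25705077, plus strand, mm10) had the highest level of the 10 in both groups, above that of 89.4% of the genes tested. Its CPM were 167, 243 and 161 in Vehicle 1 to 3 and 139, 131 and 174 in AG636 1 to 3. Vehicle 2 stood highest and the groups overlapped. The log2 fold change was -0.36 (SE 0.18, 95% interval -0.76 to 0.04), with an adjusted p of 0.173 in edgeR's test.

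Tgfbr2 (chr9:116084293-116175360, minus strand) encodes the type II receptor, which binds the ligand first. Its CPM were 16.6, 14.1 and 17.3 in Vehicle 1 to 3, against 29.1, 28.7 and 26.0 in AG636 1 to 3. Every AG636 sample lay above every vehicle sample, and the spread within a group was small (16.0 ± 1.68 and 27.9 ± 1.65 CPM, mean ± SD, n = 3 each). The log2 fold change was 0.81 (SE 0.17, 95% interval 0.42 to 1.19), with an adjusted p of 0.0127 in edgeR's test. Behind these values lay 83 to 139 counts a sample. Without Vehicle 2, the sample with the lowest Tgfbr2 level, the log2 fold change was 0.71 and edgeR's adjusted p 0.0502, and the other 5 samples could each be left out with the call kept.

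Tgfbr1 (chr4:47353222-47414931, plus strand) encodes the type I receptor, the kinase that phosphorylates SMAD2 and SMAD3. The vehicle samples had 13.7, 14.9 and 17.8 CPM and the AG636 samples 23.8, 23.5 and 29.1 CPM. The groups did not overlap, and AG636 3 was the highest of the 6. The log2 fold change was 0.72 (SE 0.19, 95% interval 0.30 to 1.14), with an adjusted p of 0.0249 in edgeR's test, from 77 to 154 counts a sample. This call was lost without Vehicle 1, Vehicle 2, AG636 1 or AG636 3 (edgeR's adjusted p from 0.0564 to 0.0992), while the log2 fold change stayed between 0.62 and 0.81 in all alternatives.

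Smad3 (chr9:63646767-63757994, minus strand) encodes one of the receptor-activated SMADs, the one that binds DNA directly. It had 64.5, 79.4 and 73.3 CPM in Vehicle 1 to 3 and 88.1, 104 and 111 CPM in AG636 1 to 3. The groups did not overlap, although Vehicle 2 and AG636 1 were close. The log2 fold change was 0.48 (SE 0.14, 95% interval 0.17 to 0.79), with an adjusted p of 0.0363 in edgeR's test. The call held in only 1 of the 6 fits that left out a sample, the one without AG636 1; in the other 5 edgeR's adjusted p lay between 0.0629 and 0.131, with log2 fold changes from 0.39 to 0.54.

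Smad2, on chromosome 18, encodes the other receptor-activated SMAD of this pathway. Its level was 27.3, 35.7 and 32.2 CPM in Vehicle 1 to 3 and 30.2, 27.8 and 37.0 CPM in AG636 1 to 3. The samples of the groups were interleaved. The log2 fold change was -0.0036 with an SE of 0.18 and a 95% interval of -0.40 to 0.39, and its sign turned with the scaling (0.046 with upper quartile scaling and 0.085 with library size alone). Smad4, also on chromosome 18, encodes the SMAD that both others bind. It had 25.7, 32.0 and 42.4 CPM with vehicle and 40.8, 48.5 and 49.6 CPM with AG636. Vehicle 3 reached into the AG636 range, and the log2 fold change of 0.48 (SE 0.20) did not pass the threshold (adjusted p 0.106 in edgeR's test). Without Vehicle 3 it was 0.65 with an adjusted p of 0.0403 in edgeR's test.

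Smad7, on chromosome 18, encodes the inhibitory SMAD that the pathway itself induces. It had the lowest level of the 10, above that of 18.8% of the genes tested, with 246 counts over all 6 samples. Its CPM were 6.06, 6.28 and 5.85 with vehicle and 8.92, 10.5 and 8.12 with AG636. The groups did not overlap, but with an SE of 0.24 the log2 fold change of 0.59 had an adjusted p of 0.103 in edgeR's test. Its 95% interval ran from 0.06 to 1.13.

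The corepressor genes gave no call. Ski (chr4:155154075-155222592) encodes a protein that binds SMADs and recruits histone deacetylases. It had 42.1, 45.5 and 44.3 CPM with vehicle and 47.6, 50.3 and 59.7 CPM with AG636, groups that did not overlap. The log2 fold change was 0.26 (SE 0.14) with an adjusted p of 0.224 in edgeR's test. Skil (chr3:31095058-31122577) encodes the related SNON protein. It had 8.38, 11.1 and 21.7 CPM with vehicle and 11.0, 12.4 and 10.005 CPM with AG636, with Vehicle 3 far above the other 5 samples. Its log2 fold change was -0.29 (SE 0.33, adjusted p 0.561 in edgeR's test), and 0.16 without Vehicle 3. Tgif1 (chr17:70844205-70853546) encodes a homeobox repressor that competes for SMAD2 and SMAD3. It had 24.4, 28.6 and 27.4 CPM with vehicle and 35.9, 30.7 and 52.1 CPM with AG636. The groups did not overlap, AG636 3 stood highest, and the log2 fold change of 0.56 (SE 0.21) had an adjusted p of 0.0789 in edgeR's test. Without AG636 2 it was 0.71 with an adjusted p of 0.0337 in edgeR's test.

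**Figure D1:**
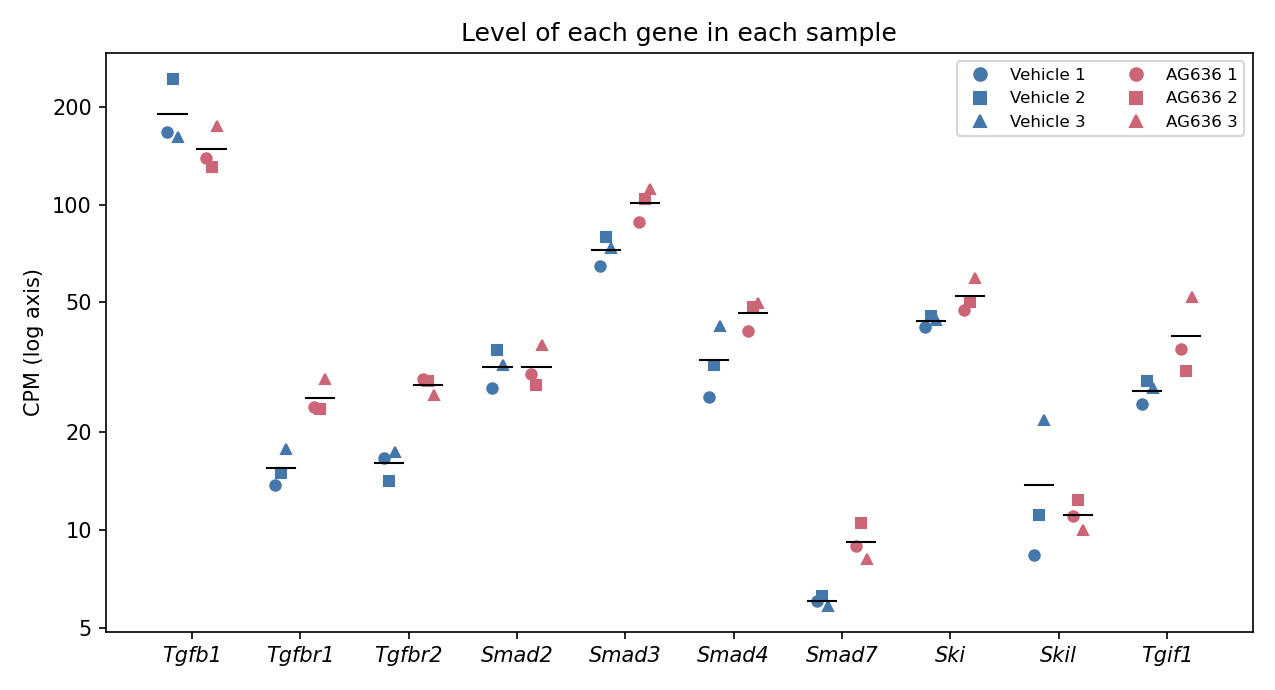
Level of each of the 10 genes in CPM on a log axis, with 1 point per sample, vehicle in blue and AG636 in red, and a black line at each group mean (n = 3). The AG636 points lie above all vehicle points for Tgfbr1, Tgfbr2, Smad3, Smad7, Ski and Tgif1, and the single high vehicle point of Skil is Vehicle 3.

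As a group, 7 of the 10 genes had a higher and 3 a lower fitted level with AG636. The median log2 fold change was 0.48, beside 0.03 over all genes tested. In 6 of the 10 the AG636 samples all lay above the vehicle samples and in 0 all below, beside 20.5% and 20.6% of all genes tested. For a single gene, the exact two-sided permutation test of 3 against 3 samples cannot give a p below 0.1, the value it gave for each of those 6. At an adjusted p under 0.01 none of the 10 passed in edgeR's test.

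**Figure D2:**
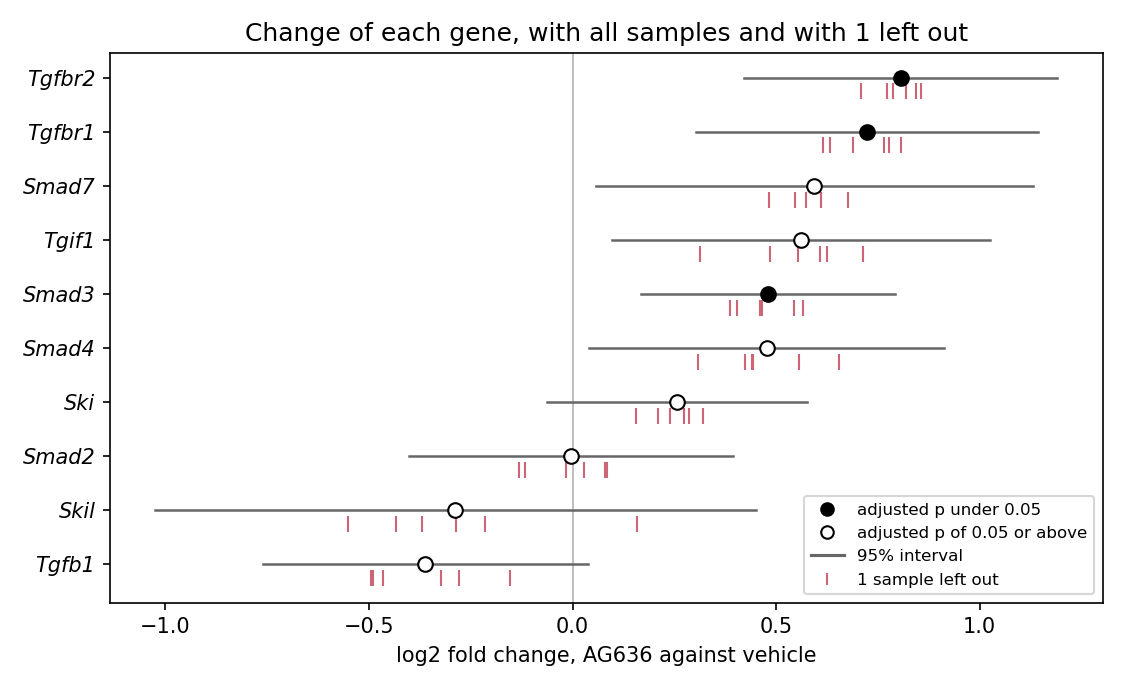
Log2 fold change of each gene, AG636 against vehicle, from edgeR's fit with all 6 samples (circles, filled where the adjusted p was under 0.05), with its 95% interval (grey lines) and the value with each sample left out in turn (red ticks). The ticks of Tgfbr1, Tgfbr2 and Smad3 all lie above 0.3, and those of Smad2 and Skil fall on both sides of 0.

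The order of the levels was similar in the groups. In vehicle samples Tgfb1 (190 CPM) stood above Smad3 (72.4 CPM) and Smad3 above Ski (44.0 CPM), without overlap. Ski, Smad4, Smad2 and Tgif1 followed, each overlapping the next. The receptor genes Tgfbr2 (16.0 CPM) and Tgfbr1 (15.5 CPM) came next. Their ranges overlapped each other, and both overlapped that of Skil (13.7 CPM). In AG636 samples Tgfbr2 (27.9 CPM) and Tgfbr1 (25.5 CPM) again overlapped each other. Both ranges now met that of Smad2 (31.7 CPM), and neither overlapped that of Skil (11.1 CPM).

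Ratios within a sample do not depend on how libraries were scaled. The log2 ratio of Smad3 to Smad2 counts was 1.24, 1.15 and 1.19 in Vehicle 1 to 3 and 1.54, 1.89 and 1.59 in AG636 1 to 3. All 3 AG636 samples lay above the vehicle samples, with a difference of 0.48 (exact permutation p = 0.1, the smallest possible, and 0.4 after adjustment over 4 ratios). The log2 ratio of Tgfbr2 to Tgfbr1 was 0.05 ± 0.19 with vehicle and 0.14 ± 0.26 with AG636 (mean ± SD, n = 3 each), and the groups overlapped (difference 0.09, exact permutation p = 0.8). The ratio of the inhibitor Smad7 to Smad3 differed by 0.11 on the log2 scale (exact permutation p = 0.8). That of Skil to Ski differed by -0.44 (exact permutation p = 0.5), and its groups overlapped.

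**Figure D3:**
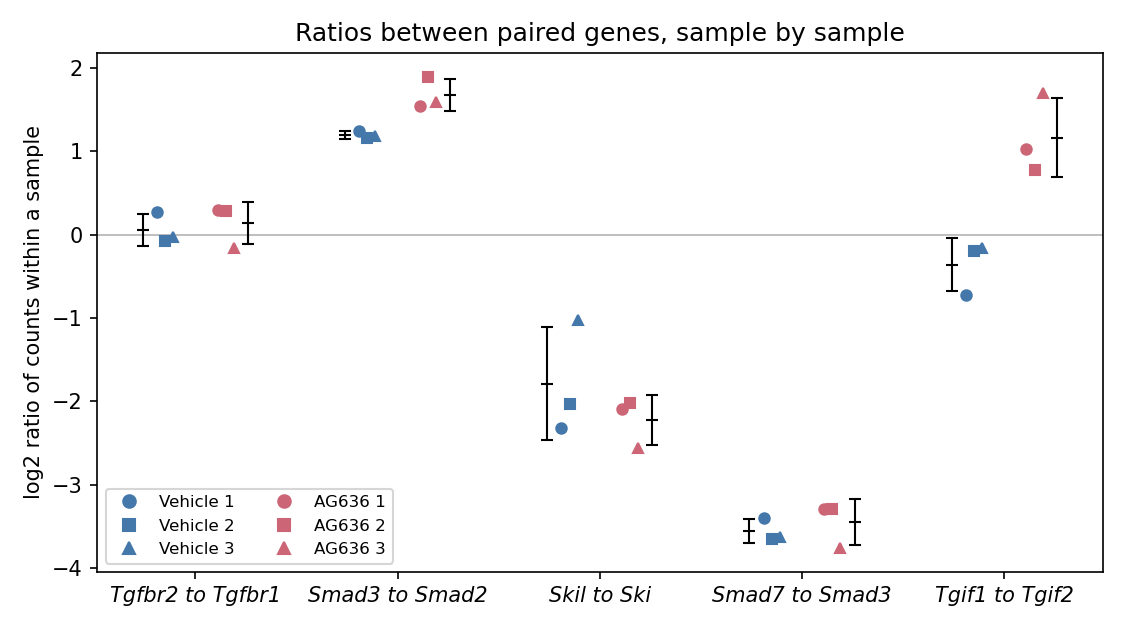
Log2 ratio of counts of paired genes within each sample, with 1 point per sample (vehicle blue, AG636 red) and the group mean ± SD beside it (n = 3). The AG636 points lie above the vehicle points for Smad3 to Smad2 and for Tgif1 to Tgif2, a pair chosen after its values were seen, and the groups overlap for the other 3 pairs.

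The other genes of the pathway were read from lists by role, 91 genes of which 65 had enough reads to test. Of these, 8 rose and 4 fell, and 46 had a higher and 19 a lower fitted level, with a median log2 fold change of 0.13. Over all genes tested 1146 rose and 1222 fell. Scaled by library size alone, 1483 genes rose and 913 fell, and of the pathway genes 12 rose and 3 fell.

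Around the ligand, 5 of 14 genes could be tested and 1 rose. This was Itgav, the αv integrin subunit that helps release TGF-β from its latent form, at 7.49, 10.3 and 9.40 CPM with vehicle and 15.9, 13.0 and 17.2 CPM with AG636 (log2 fold change 0.75, adjusted p 0.0394 in edgeR's test). Nrros, which tethers latent TGF-β on myeloid cells and had the highest CPM of these 14, had a log2 fold change of 0.21 (adjusted p 0.376 in edgeR's test). Among 12 other receptors and coreceptors, 6 could be tested and 1 rose. This was Bmpr2, the type II receptor for BMP ligands, at 10.9, 15.4 and 15.5 CPM with vehicle and 25.1, 26.8 and 24.9 CPM with AG636 (log2 fold change 0.88, adjusted p 0.0143 in edgeR's test). Eng, a coreceptor with the highest CPM of these 12, had a log2 fold change of -0.21 (adjusted p 0.652 in edgeR's test). Of the 4 other SMAD genes, 2 could be tested and none passed in edgeR's test, and Smad5, with the highest CPM of these, had a log2 fold change of 0.33 (adjusted p 0.116 in edgeR's test).

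Among the 7 other corepressor genes, all testable, 1 rose and 1 fell. Tgif2, the close relative of Tgif1, had 40.5, 32.8 and 30.5 CPM with vehicle and 17.6, 17.9 and 16.0 CPM with AG636, without overlap (log2 fold change -1.01, adjusted p 0.00627 in edgeR's test). A gene on the opposite strand, 5430405H02Rik, overlaps its exons, with 338 counts beside the 879 of Tgif2, and reads of the overlap cannot be assigned with certainty. Zeb2, a zinc finger repressor that binds SMADs, had a log2 fold change of 0.71 (adjusted p 0.0348 in edgeR's test), and Ncor1, with the highest CPM of the 7, one of 0.11 (adjusted p 0.523 in edgeR's test). Among 12 coactivators and transport factors, 9 could be tested and 2 fell. Both carry many proteins across the nuclear envelope, SMADs among them. The importin gene Kpnb1 had 322, 312 and 320 CPM with vehicle and 171, 191 and 170 CPM with AG636, and the exportin gene Xpo1 246, 198 and 212 CPM against 126, 115 and 134 CPM. Their log2 fold changes were -0.84 and -0.81 (adjusted p 0.00259 and 0.00453 in edgeR's test).

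Of 13 genes for turnover and phosphatases, 12 could be tested, 1 rose and 1 fell. Rnf111, a ubiquitin ligase that removes SMAD7, SKI and SKIL, had a log2 fold change of 0.52 (adjusted p 0.046 in edgeR's test). Stub1, a ubiquitin ligase for misfolded proteins and SMADs, had one of -0.52 (adjusted p 0.0337 in edgeR's test), and its exons overlap those of Jmjd8. None of the 9 genes of the arm that signals outside the SMADs passed, and Rhoa, with the highest CPM of them, had a log2 fold change of -0.07 (adjusted p 0.737 in edgeR's test). Ppm1a, a phosphatase with the highest CPM of the turnover list, had one of 0.03 (adjusted p 0.885 in edgeR's test).

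Genes that TGF-β is known to induce were read as 17 genes outside the 10, of which 10 could be tested. All 10 had a higher fitted level with AG636 and 2, Cdkn1a and Tsc22d1, passed. The full list, with the genes it shares with the 10 described here, held 15 tested genes, 13 higher and 2 lower. The 2 lower were Tgfb1 and Skil. Its median log2 fold change was 0.26, beside 0.49 without the shared genes. Among all 11092 genes tested, 5801 had a higher fitted level and 10.3% passed upward. Cdkn1a, which encodes the cell cycle inhibitor p21, had 24.1, 54.5 and 63.3 CPM with vehicle and 87.3, 86.8 and 106 CPM with AG636 (log2 fold change 0.98, adjusted p 0.0353 in edgeR's test). Tsc22d1, a leucine zipper gene, had 103, 108 and 103 CPM against 167, 161 and 195 CPM (log2 fold change 0.74, adjusted p 0.00512 in edgeR's test). Of 6 genes that TGF-β is known to repress, 5 could be tested. Of these, 2 had a higher and 3 a lower fitted level, with a median log2 fold change of -0.11. The 2 higher ones passed. These were Id1 and Id2, inhibitors of basic helix-loop-helix factors that BMP ligands induce. Id2 had 17.7, 38.2 and 55.0 CPM with vehicle and 89.8, 103 and 94.95 CPM with AG636 (log2 fold change 1.38, adjusted p 0.0142 in edgeR's test), and Id1 had a log2 fold change of 0.90 (adjusted p 0.0249). Ccna2, with the highest CPM of these 6, had a log2 fold change of -0.11 (adjusted p 0.659 in edgeR's test).

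Several of these genes lay near the threshold, and their calls were lost in fits with 1 sample fewer. Leaving out any 1 of the 6 ended the call of Zeb2, as did any but AG636 2 for Itgav, any but Vehicle 3 for Rnf111 and Id1, and any but Vehicle 1 for Stub1. Cdkn1a lost its call without Vehicle 2, AG636 1 or AG636 3, and Id2 without Vehicle 2. The highest adjusted p that edgeR gave in these fits was 0.106 for Zeb2, 0.137 for Itgav, 0.16 for Rnf111, 0.0775 for Id1, 0.115 for Stub1, 0.112 for Cdkn1a and 0.0548 for Id2. The log2 fold changes in these fits ran from 0.49 to 0.84 for Zeb2, 0.62 to 0.86 for Itgav, 0.41 to 0.59 for Rnf111, 0.67 to 1.13 for Id1, -0.61 to -0.40 for Stub1, 0.65 to 1.21 for Cdkn1a and 1.04 to 1.74 for Id2, so each kept its direction. Bmpr2, Tgif2, Kpnb1, Xpo1 and Tsc22d1 kept their calls in each of the 6 fits.

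**Figure D4:**
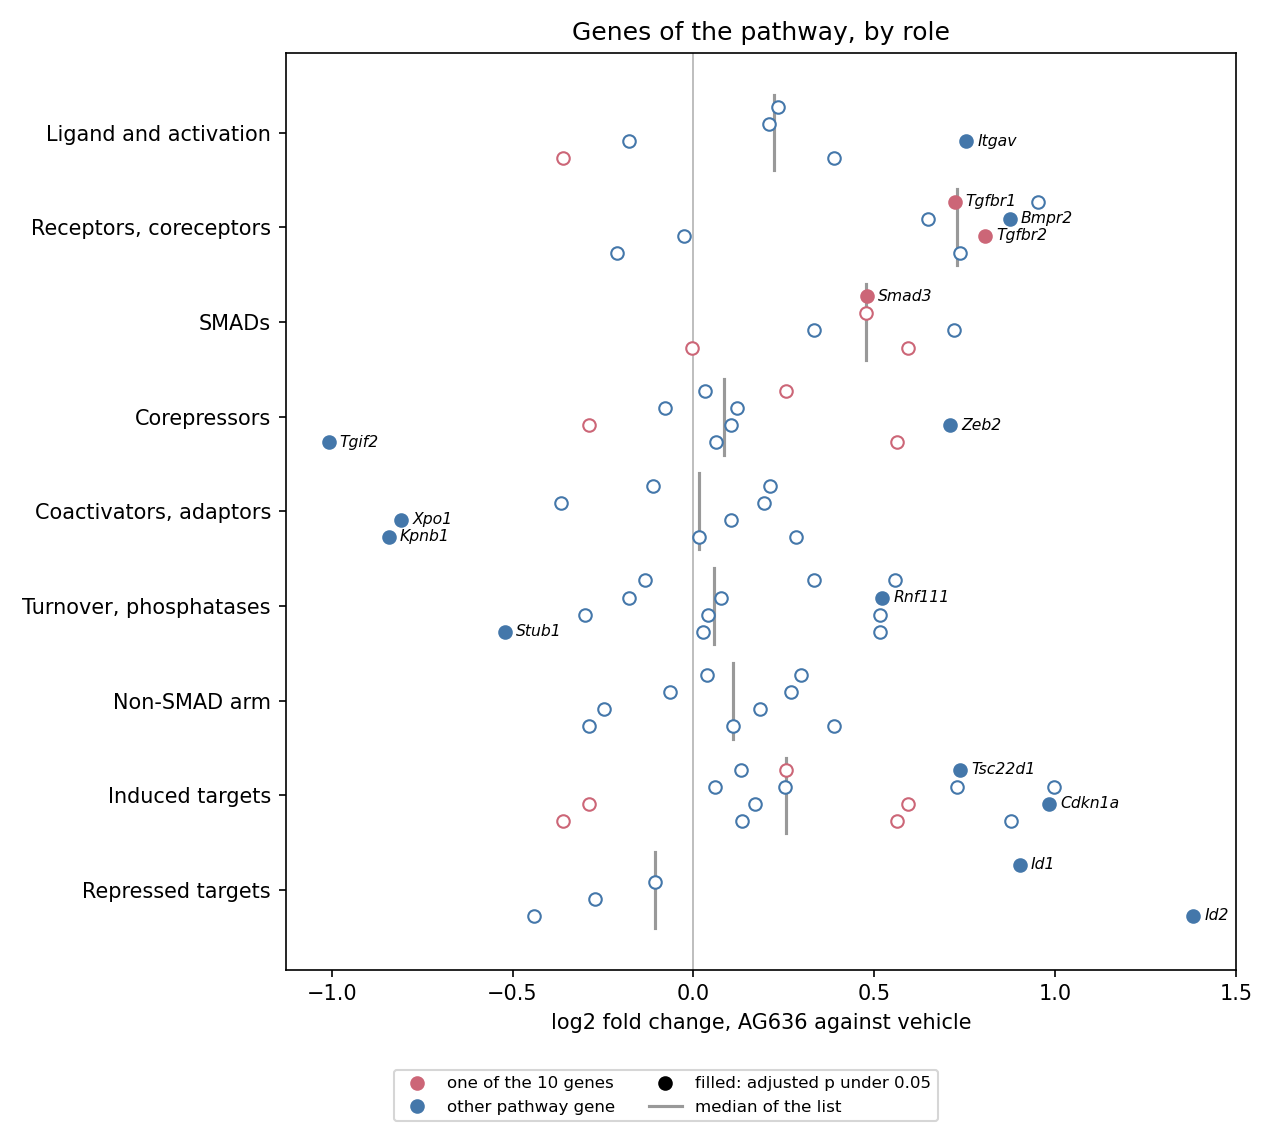
Log2 fold change, AG636 against vehicle, of each tested gene of the pathway by role, with the 10 genes in red, others in blue, filled circles for an adjusted p under 0.05 and a grey line at the median of each list. A gene of more than 1 list is drawn in each, and 4 named circles (Tgif2, Kpnb1, Xpo1, Stub1) lie to the left of 0.

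Genes whose log2 CPM followed those of the called genes most closely over the 6 samples were noted as a description. For Tgfbr1 these were Gm43788, Prkacb and Gata2 (Pearson's r = 0.997, 0.995 and 0.994, n = 6). For Tgfbr2 they were Swt1, Snx14 and P2ry13 (r = 0.998, 0.995 and 0.994), and for Smad3 Aatk, Gm37010 and A330084C13Rik (r = 0.999, 0.996 and 0.993). With 3 samples in each of 2 groups such values are common, since 878, 527 and 633 tested genes had r above 0.9 with Tgfbr1, Tgfbr2 and Smad3.

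Markers of mature cells moved with the treatment as well. Markers of immature myeloid cells were present in every sample (Kit 31.8 to 46.3 CPM and Myb 397 to 552 CPM), and 1 of the 8 rose (2312 to 4604 CPM in sum with vehicle and 1896 to 4602 CPM with AG636). Of 9 markers of mature granulocytes, 7 rose, and their summed level was 1045 to 2387 CPM with vehicle and 2913 to 5933 CPM with AG636. Of 7 markers of monocytes and macrophages, 6 could be tested and 2 rose (46.4 to 68.3 CPM against 117 to 154 CPM in sum). Cd68, 1 of these 2, had a mean of 27.7 CPM with vehicle and 81.9 CPM with AG636. Cd14, the marker not tested, was lower in every AG636 sample (3.39, 1.96 and 5.64 CPM against 1.27, 0.619 and 1.89 CPM). Of 7 megakaryocyte and platelet markers 2 rose (780 to 1228 CPM against 1069 to 1732 CPM). Another of these, Ppbp, was lower in every AG636 sample (log2 fold change -0.74, adjusted p 0.0534 in edgeR's test). Of 8 erythroid markers 2 fell (1822 to 4942 CPM against 1981 to 3478 CPM). Of 6 mast cell and basophil markers 1 rose (314 to 553 CPM against 442 to 1028 CPM), with Tpsab1 at 0 in all samples. Of 6 B cell markers none of the 2 tested passed (13.4 to 26.9 CPM against 29.1 to 43.7 CPM). Of 7 T and NK cell markers the 1 tested, Nkg7, did not pass (193 to 330.1 CPM against 258 to 494 CPM), and Cd3e lay at or below 0.619 CPM. Of 6 stromal and endothelial markers the 1 tested, Pecam1, did not pass (105 to 177 CPM against 151 to 245 CPM), and Cdh5 and Lepr had no counts in any sample. Itgam, which encodes CD11b, was 1 of the 7 granulocyte markers that rose. It had 12.1, 18.3 and 27.0 CPM with vehicle and 60.1, 31.3 and 41.2 CPM with AG636. Its log2 fold change was 1.21 (adjusted p 0.0219 in edgeR's test), and that of Kit 0.15 (adjusted p 0.55 in edgeR's test). The sort was for cKit-positive leukemic cells with little or no CD11b, a gate meant to leave out mature granulocytes and macrophages. A rise of these markers within the sorted leukemic cells and other cells carried through the sort cannot be told apart, and the part of either in the levels of the receptor and SMAD genes was not tested.

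**Figure D5:**
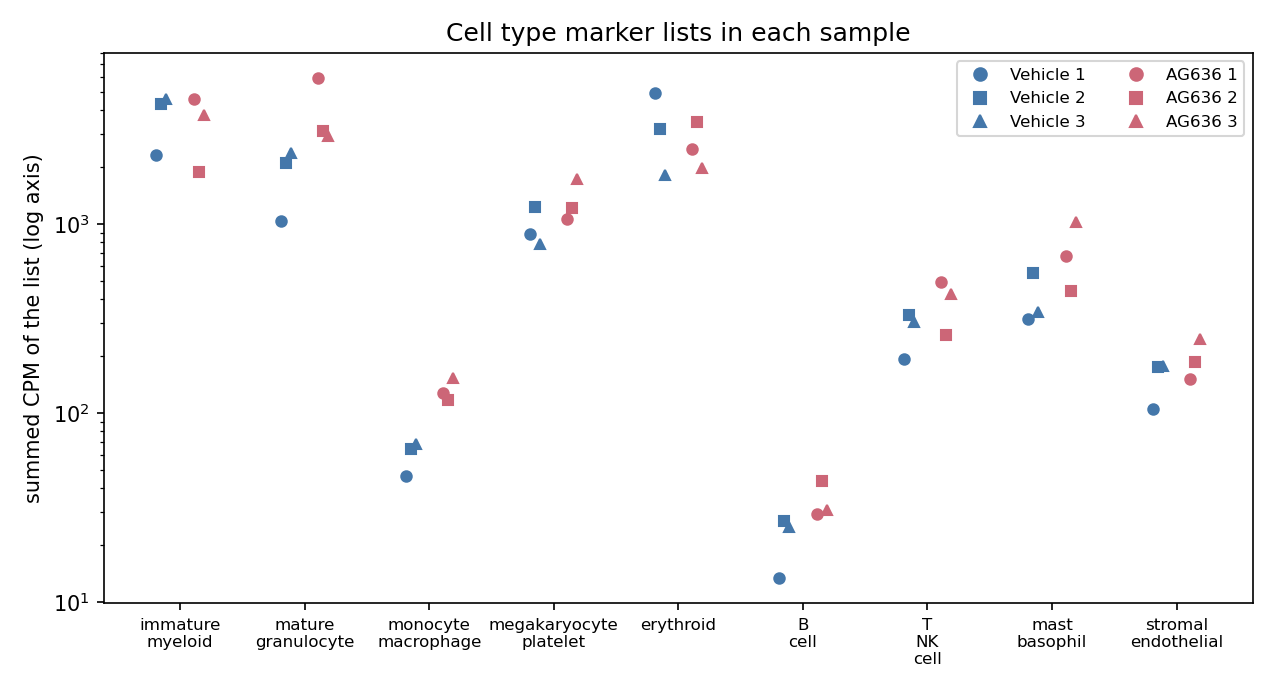
Summed CPM of each list of cell type markers in each sample, on a log axis, with 1 point per sample (vehicle blue, AG636 red). The AG636 points lie above the vehicle points for mature granulocytes (2913 CPM or more against 2387 CPM or less) for monocytes and macrophages, and for B cells, and the groups overlap for the other 6 lists.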

How the data were processed

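Sorted I1DN cells of 6 mice, 3 given vehicle and 3 AG636, were sequenced as 3′ mRNA libraries. The authors deposited raw counts of reads per gene. Per the labels, reads were trimmed with cutadapt 1.9.1, mapped to mm10 with HISAT2 2.0.4 and counted with featureCounts of Subread 1.5.0-p3; the methods and labels differ in some versions, and the annotation and strand setting are not given in the sources used here. GENCODE gave symbols to 54723 of 54838 genes. Groups and replicate numbers came from the labels.

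Tests used edgeR 4.0.16 in R 4.3.3: filterByExpr (minimum count 10, minimum total 15), TMM scaling and the quasi-likelihood test, adjusted over all 11092 genes. The SE is the log2 fold change divided by the root of F, and the intervals are at 95%. Alternatives were DESeq2 1.42.0, limma-voom (limma 3.58.1), 3 scalings, 2 filters, a stricter threshold, a replicate block and leaving out each sample. Scripts were tested on simulated data. A level of 3 counts corresponded to between 0.392 and 0.637 CPM, a floor for counting error only. Replicates differed beyond sampling noise, with a chi-square per degree of freedom of 6.22 to 14.6, a ratio of variances pooled over genes. The 10 genes, the pathway lists and the marker lists were chosen with earlier results of these data known. Named were all 10 genes, the called genes and the gene of highest CPM of each list, and the 3 genes most like each called gene. Single markers were named after their values were seen.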

Additional observations from a re-analysis of the deposited data

How the results depend on the processing

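Tgfbr1, Tgfbr2 and Smad3 were called with DESeq2, limma-voom, all 3 other scalings, both filters and the replicate block. At an adjusted p under 0.01 edgeR called 0 of the 10 (0 upward), 4 other pathway genes (1 upward) and 556 genes of the table (231 higher, 325 lower). Leaving out 1 sample gave 0 to 3 called among the 10 (0 to 3 upward), 5 to 15 other pathway genes (2 to 12 upward), and 851 to 2311 genes of the table (399 to 1074 higher, 452 to 1298 lower), fewest without AG636 3 for the table and without Vehicle 2 for the 10 genes. In these fits log2 fold changes ranged from 0.62 to 0.81 for Tgfbr1, 0.71 to 0.86 for Tgfbr2, 0.39 to 0.57 for Smad3, 0.31 to 0.65 for Smad4, 0.31 to 0.71 for Tgif1, -0.13 to 0.085 for Smad2 and -0.55 to 0.16 for Skil. Smad2 turned positive with upper quartile scaling (0.046) and library size alone (0.085), and without Vehicle 2 (0.085), AG636 1 (0.028) or AG636 2 (0.079), and Skil without Vehicle 3 (0.16). The causes were not tested. Of the other pathway genes, Bmpr2, Tgif2, Kpnb1, Xpo1 and Tsc22d1 were called in all 14 alternatives that kept the threshold of 0.05. Id2 was lost in 1 of these, Cdkn1a in 3, Id1 in 5, Itgav and Zeb2 in 6, and Rnf111 and Stub1 in 8. At the stricter threshold Bmpr2 was not called (adjusted p 0.0143 in edgeR's test with all samples). Same-numbered samples deviated with correlations of -0.05, -0.17 and 0.21, and samples of different numbers with correlations from -0.36 to 0.35. These values show no pairing by number, but with 3 mice a group they cannot exclude it. The replicate block gave 1960 called genes and 11 other pathway genes, and 3 of the 10. Tgfbr1 had 77 to 154 counts a sample and an SE of 0.19, and Smad7 28 to 51 counts and an SE of 0.24. The median SE over all genes tested was 0.195, and the part of counting error in these values was not tested.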

Other observations

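Tgif1 and Tgif2, which encode closely related homeobox repressors of SMAD output, had opposite orders of counts in the groups. The log2 ratio of Tgif1 to Tgif2 counts was -0.73, -0.20 and -0.16 in Vehicle 1 to 3 and 1.02, 0.77 and 1.69 in AG636 1 to 3, so Tgif2 had more counts in every vehicle sample and Tgif1 in every AG636 sample. The difference of 1.52 had an exact permutation p of 0.1, the smallest that 3 against 3 samples can give. This pair was chosen after its values were seen, and it is a description of these samples.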
